A study of Mus musculus with 8 samples.

Results

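Keratins are the intermediate filament proteins of epithelial cells. A filament is built from pairs of an acidic type I chain and a basic type II chain, and which pair a cell makes follows its kind of epithelium. Simple epithelia, the luminal cells of the mammary gland among them, make Krt8 with Krt18 together with Krt7 and Krt19, basal and myoepithelial cells make Krt5 with Krt14 and also Krt17, and injured or hyperproliferative epithelia switch on Krt6a and Krt16. The 10 genes described here are these simple, basal and stress keratins and Krt23, a further type I keratin. They were chosen by name, and all 10 were found among the 24421 genes of the files. A level of 1 FPKM in 2 or more libraries was required for a test, which 12012 genes and 9 of the 10 keratins met; Krt5 did not. FPKM is a fragment count divided by transcript length and library depth, and on that basis levels were set side by side between genes. How these FPKM were computed, and on which annotation, is not given, so such comparisons are approximate.

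RNA was sequenced from the mouse mammary tumour line MCa-P1362, started from a spontaneous adenocarcinoma of a Balb/c female. All groups were grown in DMEM with serum and separated in a cell sorter by EpCAM, which joins epithelial cells to each other, and the labels name no engineered allele and no drug. The 4 groups of 2 libraries are monoculture EpCAM+, coculture EpCAM+, monoculture EpCAM- and coculture EpCAM- cells. After the sort, some cells were frozen at once and others were grown on and passaged before freezing, and which of these is meant by monoculture or coculture is not given. The line comes from 1 tumour, and whether the libraries of a group are separate cultures is not stated, so the p-values below measure the spread between libraries, which may be technical.

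The sort is visible in its own gene. Epcam had 128.7 and 132.8 FPKM in monoculture EpCAM+ and 199.9 and 202.1 FPKM in coculture EpCAM+ libraries, against 0.225 and 0.260 FPKM in monoculture EpCAM- and 0.341 and 0.359 FPKM in coculture EpCAM- libraries. Over 17 epithelial markers that are no keratins, the summed level was 1961 to 1969.8 FPKM in monoculture EpCAM+ and 2450.3 to 2458 FPKM in coculture EpCAM+ cells, against 3.57 to 3.98 FPKM in monoculture EpCAM- and 5.11 to 5.84 FPKM in coculture EpCAM- cells. Over 14 markers of fibroblasts, pericytes and smooth muscle, it was 38.7 to 39.0 FPKM in monoculture EpCAM+ and 228 to 231 FPKM in coculture EpCAM+ cells, against 13315 to 13329.7 FPKM in monoculture EpCAM- and 12429 to 12488 FPKM in coculture EpCAM- cells. The EpCAM- fraction of this breast cancer line therefore carried little of the epithelial markers and much of the stromal ones. The FPKM of a library added up to 387489 at the lowest and 414612 at the highest, and the number of reads behind them is unknown.

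In EpCAM+ cells the simple keratins stood among the most abundant transcripts of all. Krt8, the type II partner of Krt18, had 3019 and 3068 FPKM in monoculture EpCAM+ and 3304 and 3354 FPKM in coculture EpCAM+ libraries, against 4.72 and 5.11 FPKM in monoculture EpCAM- and 10.3 and 8.94 FPKM in coculture EpCAM- libraries. By mean FPKM its rank among all genes was 2 in both EpCAM+ groups, and Krt18, Krt19 and Krt7 had the ranks 5, 9 and 10 in monoculture EpCAM+ and 3, 9 and 14 in coculture EpCAM+ cells. Krt18, its type I partner, had 2203 and 2234 FPKM in monoculture EpCAM+ and 2529.6 and 2569.6 FPKM in coculture EpCAM+ libraries, against 3.62 and 3.92 FPKM in monoculture EpCAM- and 8.57 and 8.99 FPKM in coculture EpCAM- libraries. For both genes every EpCAM+ library stood far above every EpCAM- library, and within EpCAM- the coculture libraries were above the monoculture ones.

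Krt19, the shortest type I keratin and a luminal marker, had 1641 and 1629 FPKM in monoculture EpCAM+ and 1649 and 1656 FPKM in coculture EpCAM+ libraries, against 4.41 and 4.98 FPKM in monoculture EpCAM- and 6.58 and 6.29 FPKM in coculture EpCAM- libraries. Its 4 EpCAM+ libraries were nearly level. Krt7, a type II keratin of ducts and glands, had 1554 and 1593 FPKM in monoculture EpCAM+ and 1349 and 1346 FPKM in coculture EpCAM+ libraries, against 4.34 and 3.81 FPKM in monoculture EpCAM- and 5.88 and 5.85 FPKM in coculture EpCAM- libraries. For Krt7 the monoculture EpCAM+ libraries were above the coculture ones, without overlap, while within EpCAM- cells the monoculture libraries were below.

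The genes lie in the 2 keratin clusters of the mouse genome, and the build of the files, mm10, gives their places. Krt7 (chr15:101411043-101430313), Krt5, Krt6a, Krt8 (chr15:101996698-102004482) and Krt18 (chr15:102028180-102032027) lie on chromosome 15, and Krt23, Krt19, Krt14, Krt16 and Krt17 on chromosome 11. Krt18 is a type I gene that lies apart from its class, beside Krt8. Windows from 250 bases before to 50 bases after the start were matched in the RefSeq table of GRCm38.p6, which is the same build, for 6 of the 10 genes. The RefSeq start lay within 36 bases of the 5′ end of the gene span for Krt18, Krt5 and Krt23. It lay 140 bases inside the span for Krt8, 1360 bases for Krt7 and 1518 bases for Krt14, so the windows of these last genes belong to an inner start. The windows of the neighbours Krt8 and Krt18 and of Krt7 are shown as those of abundant keratins, and those of Krt5 and Krt23 as those of the lowest ones. Capitals mark TATAAA, its shorter form ATAAA and the GC box GGGCGG, read on both strands, where TATAAA contains ATAAA.
Krt8 (chr15:102004293-102004592, minus strand): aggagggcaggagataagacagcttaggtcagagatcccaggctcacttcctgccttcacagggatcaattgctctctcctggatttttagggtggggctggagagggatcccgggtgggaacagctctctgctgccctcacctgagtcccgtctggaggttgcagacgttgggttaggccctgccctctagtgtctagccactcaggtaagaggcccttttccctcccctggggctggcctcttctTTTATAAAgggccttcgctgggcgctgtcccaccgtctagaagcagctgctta
Krt18 (chr15:102027966-102028265, plus strand): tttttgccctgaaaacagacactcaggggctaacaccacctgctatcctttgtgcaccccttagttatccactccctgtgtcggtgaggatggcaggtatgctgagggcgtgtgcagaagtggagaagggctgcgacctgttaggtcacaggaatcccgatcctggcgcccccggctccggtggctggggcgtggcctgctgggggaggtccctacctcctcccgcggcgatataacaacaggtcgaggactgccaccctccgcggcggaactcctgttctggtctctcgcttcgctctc
Krt7 (chr15:101412153-101412452, plus strand): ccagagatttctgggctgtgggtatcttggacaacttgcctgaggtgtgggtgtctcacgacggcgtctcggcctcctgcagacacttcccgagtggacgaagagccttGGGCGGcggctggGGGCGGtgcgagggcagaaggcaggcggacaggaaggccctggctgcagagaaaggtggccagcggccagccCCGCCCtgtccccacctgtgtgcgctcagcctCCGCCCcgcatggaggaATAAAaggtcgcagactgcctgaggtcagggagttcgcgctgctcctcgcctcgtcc
Krt5 (chr15:101712856-101713155, minus strand): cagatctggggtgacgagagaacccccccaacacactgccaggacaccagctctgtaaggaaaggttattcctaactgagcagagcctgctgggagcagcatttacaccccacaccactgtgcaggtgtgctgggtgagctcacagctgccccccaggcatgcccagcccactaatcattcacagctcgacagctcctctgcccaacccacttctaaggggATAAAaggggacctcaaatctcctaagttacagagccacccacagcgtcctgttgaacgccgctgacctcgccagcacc
Krt23 (chr11:99493071-99493370, minus strand): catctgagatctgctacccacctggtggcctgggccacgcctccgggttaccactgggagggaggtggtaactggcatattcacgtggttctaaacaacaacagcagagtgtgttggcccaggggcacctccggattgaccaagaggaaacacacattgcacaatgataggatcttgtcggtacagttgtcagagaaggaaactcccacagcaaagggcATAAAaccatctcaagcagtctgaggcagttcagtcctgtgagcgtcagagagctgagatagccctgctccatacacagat
ATAAA was in the windows of Krt8, Krt7, Krt5 and Krt23, 4 of 6, and in 40.0% of 32851 windows of the table. In Krt23 it began 31 bases and in Krt5 29 bases before the RefSeq start, in Krt7 7 bases before it, and in Krt8 at the start itself. TATAAA was in 1 of the 6, Krt8, and in 13.6% of all windows. GGGCGG was in 1 of the 6, Krt7, in 4 copies, and in 35.7% of all windows. TGANTCA, the AP-1 motif, was in 0 of the 6 and in 7.81% of all windows. Krt5 and Krt8, at opposite ends of the levels, both hold ATAAA, and the window of Krt18 holds none of the 4 motifs. ATAAA was added after the windows had been read.

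Basal and stress keratins came next in EpCAM+ cells, well below the simple ones. Krt16, the stress keratin of type I, had 390.2 and 399.9 FPKM in monoculture EpCAM+ and 527 and 531 FPKM in coculture EpCAM+ libraries, against 0.781 and 0.647 FPKM in monoculture EpCAM- and 1.01 and 0.706 FPKM in coculture EpCAM- libraries. Krt14, the type I keratin of basal cells, had 263 and 269 FPKM in monoculture EpCAM+ and 334 and 330.45 FPKM in coculture EpCAM+ libraries, against 0.463 and 0.600 FPKM in monoculture EpCAM- and 0.631 and 0.909 FPKM in coculture EpCAM- libraries. Within EpCAM+ cells both genes were higher in the coculture libraries, without overlap. Within EpCAM- cells the libraries of the cultures overlapped for Krt16 but not for Krt14.

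Krt17, a type I keratin of basal cells and skin appendages that also rises in wounds, had 128.8 and 131 FPKM in monoculture EpCAM+ and 191 and 196 FPKM in coculture EpCAM+ libraries, against 0.300 and 0.397 FPKM in monoculture EpCAM- and 0.403 and 0.488 FPKM in coculture EpCAM- libraries. Krt6a, the type II stress keratin that pairs with Krt16, had 49.3 and 51.4 FPKM in monoculture EpCAM+ and 137.7 and 135.8 FPKM in coculture EpCAM+ libraries, against 0.0540 and 0.111 FPKM in monoculture EpCAM- and 0.137 and 0.0803 FPKM in coculture EpCAM- libraries. Krt6a therefore had the wider gap between the cultures within EpCAM+ cells, and in EpCAM- cells its libraries overlapped.

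Krt23 and Krt5 were the lowest. Krt23 had 0.755 and 0.396 FPKM in monoculture EpCAM+ and 4.70 and 4.01 FPKM in coculture EpCAM+ libraries, and it was listed at 0 in all 4 EpCAM- libraries. Krt5, the basal type II keratin that pairs with Krt14, was listed at 0 and 0.0395 FPKM in monoculture EpCAM+ and at 0.183 FPKM in both coculture EpCAM+ libraries, against 0.0131 FPKM and 0 in monoculture EpCAM- and 0 in both coculture EpCAM- libraries. Krt14 thus stood high beside a partner that was at or near 0, and Krt5 made up between 0.0147% and 0.0555% of the Krt14 level in the 3 EpCAM+ libraries where it was above 0. Trp63, the transcription factor that defines basal epithelial cells, was listed at 0 in all 8 libraries.

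**Figure D1:**
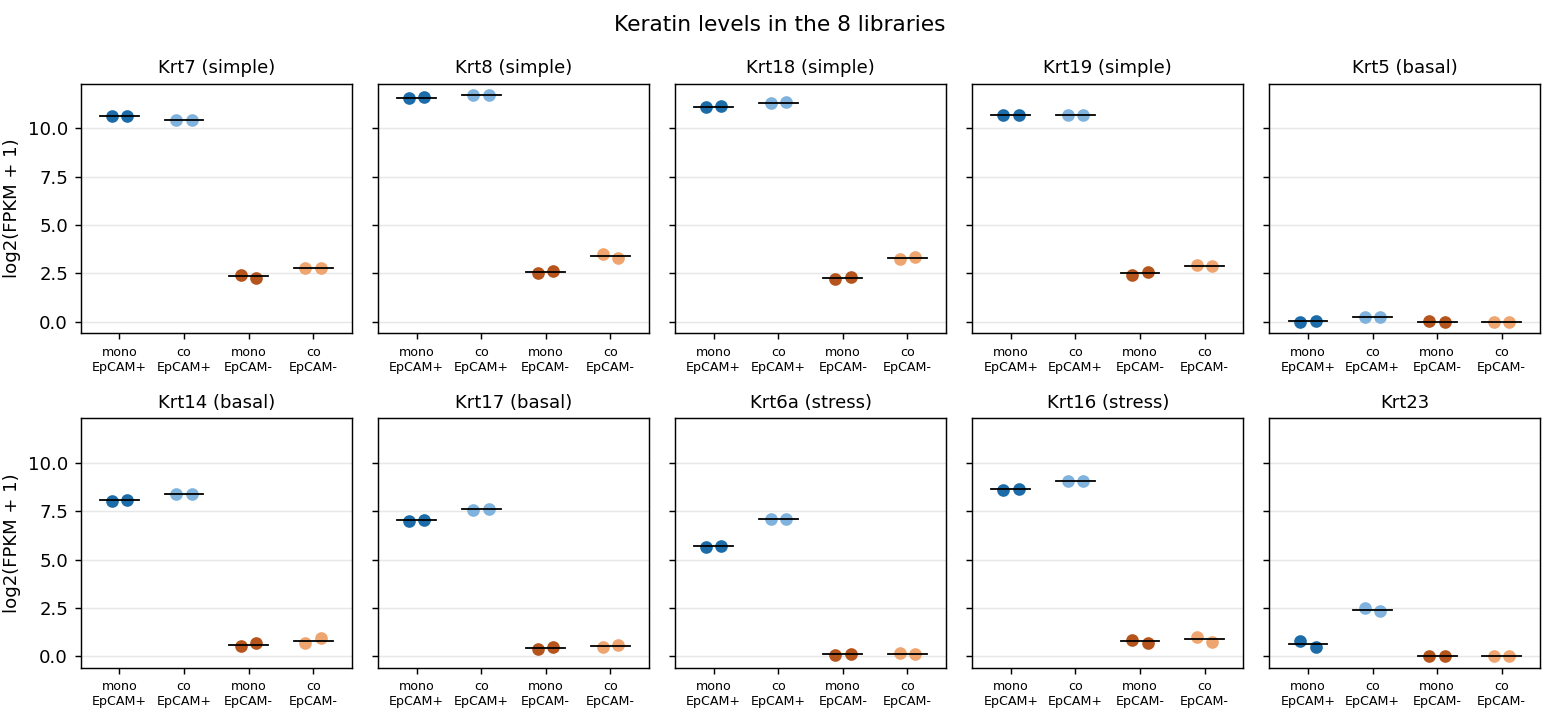
Level of each of the 10 keratins as log2(FPKM + 1) in each of the 8 libraries (points), with the mean of each group as a line; mono stands for monoculture and co for coculture. The simple keratins reach the top of the scale in EpCAM+ libraries and stay measurable in EpCAM- libraries, Krt23 is above 0 in EpCAM+ libraries only, and Krt5 is near 0 in all 8.

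The order of the levels was the same in both EpCAM+ groups, namely Krt8, Krt18, Krt19, Krt7, Krt16, Krt14, Krt17, Krt6a, Krt23 and Krt5, and no neighbours in it overlapped. Means ran from 3044 ± 34.6 FPKM for Krt8 to 0.0197 FPKM for Krt5 in monoculture EpCAM+ cells, and from 3329 ± 35.8 FPKM to 0.183 FPKM in coculture EpCAM+ cells (SD, n = 2). In monoculture EpCAM- cells Krt8, Krt19, Krt7 and Krt18 lay between 4.92 ± 0.280 and 3.77 ± 0.214 FPKM (SD, n = 2), and Krt8 overlapped Krt19 while Krt7 overlapped Krt18. Coculture EpCAM- cells had Krt8 at 9.63 ± 0.969 and Krt18 at 8.78 ± 0.291 FPKM, which overlapped, above Krt19 at 6.44 ± 0.209 and Krt7 at 5.87 ± 0.0199 FPKM (SD, n = 2). The remaining keratins were below 1 FPKM on average in both EpCAM- groups.

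EpCAM+ cells were set against EpCAM- cells to ask how far the keratins follow the sort. All 9 tested keratins were higher in EpCAM+ cells in monoculture and in coculture. Of all 12012 genes tested, 55.4% were higher in monoculture and 59.2% in coculture by the same rule, an adjusted p under 0.05 in limma, and 15.5% and 16.5% were also at least 2-fold higher. Krt14, Krt17, Krt6a and Krt23 reached 1 FPKM in EpCAM+ libraries only, and Krt16 in a single EpCAM- library besides, so these had to differ and the count of 9 is no support. The simple keratins passed it in all 8 libraries.

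On the log2(FPKM + 1) scale, which understates the change of genes that are low in a group, Krt8 differed by 9.01 (SE 0.0571, limma adjusted p = 2.92e-12) in monoculture and by 8.29 (adjusted p = 5.8e-12) in coculture. Krt18 differed by 8.86 and 8.03, Krt7 by 8.28 and 7.62 and Krt19 by 8.17 and 7.80. Among the others, Krt16 differed by 7.85 and 8.16, Krt14 by 7.45 and 7.56, Krt17 by 6.60 and 7.07, and Krt6a by 5.57 and 6.96, each in monoculture and then coculture. As plain ratios of the mean FPKM, Krt8 was 619-fold and 346-fold higher in EpCAM+ cells, and Krt6a, with the lowest EpCAM- level of the 8, was 610.4-fold and 1256-fold higher. The median over all tested genes was 0.23 in monoculture and 0.26 in coculture. Scaling the libraries by the median of ratios brought it to 0.01 and 0.0003 and left these 8 keratins between 5.44 and 8.77 in monoculture and between 6.78 and 8.01 in coculture.

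The residual keratin in EpCAM- cells can be read as a share of the EpCAM+ level of the same culture. In monoculture the 8 keratins other than Krt5 and Krt23 had between 0.162% (Krt8) and 0.287% (Krt19) of it, with a median of 0.190%. The 17 epithelial markers had a median of 0.195%, between 0.0267% (Grhl2) and 0.380% (Rab25). In coculture the keratins had a median of 0.261%, from 0.0794% for Krt6a to 0.436% for Krt7, beside a median of 0.191% for the markers, which ran from 0 for Prss8 to 0.441% for Lsr. Simple keratins in coculture EpCAM- cells were at 0.289% (Krt8), 0.344% (Krt18), 0.390% (Krt19) and 0.436% (Krt7), within the range of the markers and above their median. Epcam itself was at 0.185% in monoculture and 0.174% in coculture. Whether these traces are from a few EpCAM+ cells or from low expression in many cells cannot be told apart in bulk RNA, where fewer cells of a type and less RNA per cell give the same value.

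**Figure D2:**
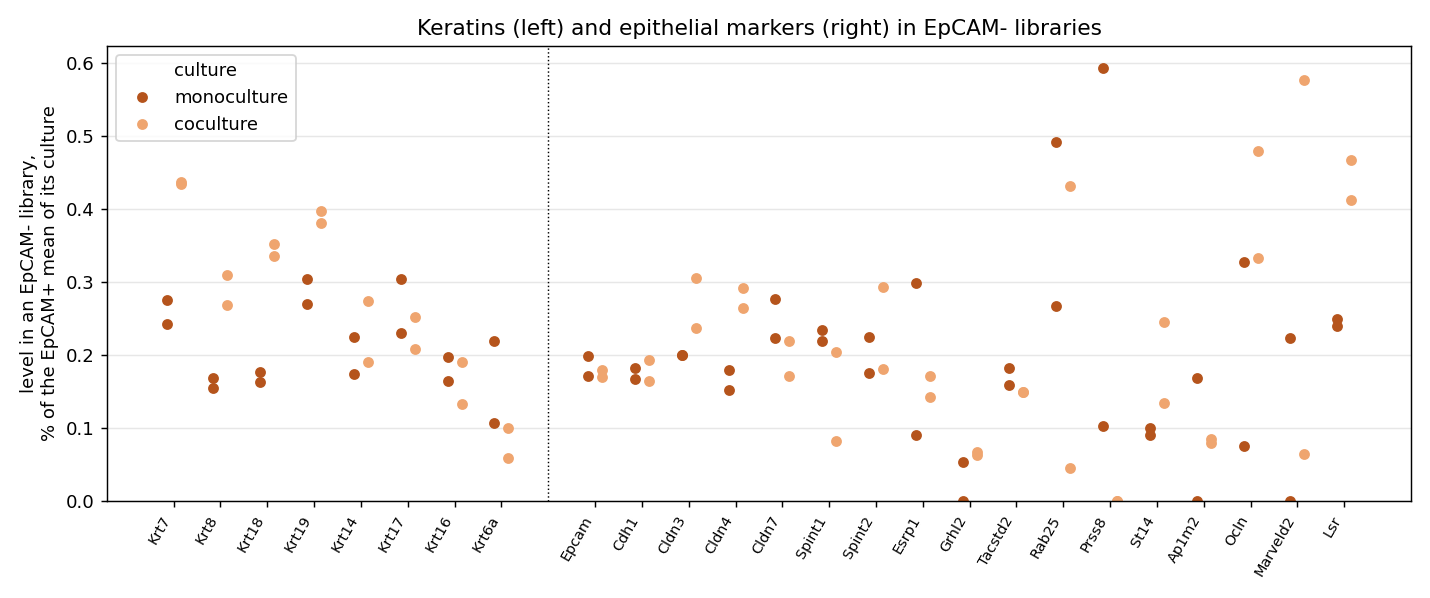
Level in each EpCAM- library as a percentage of the EpCAM+ mean of the same culture, for 8 keratins (left of the dotted line) and 17 epithelial markers (right of it); each point is a library. The monoculture points of all 4 simple keratins lie below their coculture points, and the markers run from 0 to 0.593% in single libraries.

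Monoculture was next set against coculture within EpCAM+ cells. Stress and basal keratins and Krt23 were lower in monoculture, and of the simple keratins Krt18 was lower and Krt7 higher. Of the 9 tested keratins, 6 were lower and 1 was higher, beside 34.9% and 16.4% of all genes tested (adjusted p under 0.05 in limma). The median of the 9 was -0.32, beside -0.06 over all genes tested. Only 1.67% of all genes were at least 2-fold lower, and Krt23 and Krt6a were 2 of these. Krt23 entered the test through its coculture EpCAM+ libraries alone, so it had to differ.

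Krt6a averaged 50.3 ± 1.52 FPKM in monoculture EpCAM+ and 136.8 ± 1.31 FPKM in coculture EpCAM+ cells (SD, n = 2), a log2 fold change of -1.42 (SE 0.0462, limma adjusted p = 4.38e-07). Krt16 averaged 395 ± 6.87 and 529 ± 2.77 FPKM in the same order of groups, a smaller difference of -0.42 (SE 0.0714, adjusted p = 0.00199). The stress pair was therefore unevenly changed, and Krt6a stood at 12.6% and 12.9% of the Krt16 level in monoculture EpCAM+ libraries and at 26.1% and 25.6% in coculture EpCAM+ libraries. Of the 150-base windows of Krt6a transcripts, 29.0% occur in transcripts of other genes too, Krt6b above all, and of those of Krt16 18.4% do, all in Gm11597. Krt8 shares 8.51% of its 150-base windows with Krt8-ps, its pseudogene. How the authors assigned such reads is not given, so the levels of both stress keratins and of Krt8 are uncertain to that extent.

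Krt17 had a log2 fold change of -0.57 (SE 0.0464, limma adjusted p = 4.54e-05) and Krt14 of -0.32 (SE 0.0724, adjusted p = 0.00775). Krt23 had -1.77 (SE 0.108, adjusted p = 1.03e-05), at means of 0.575 ± 0.254 FPKM in monoculture EpCAM+ and 4.36 ± 0.490 FPKM in coculture EpCAM+ cells (SD, n = 2). Among the simple keratins, Krt7 was 0.22 higher in monoculture (SE 0.0441, adjusted p = 0.0041) and Krt18 0.20 lower, written as a log2 difference of -0.20 (SE 0.0339, limma adjusted p = 0.00193). Krt8 had -0.13 (adjusted p = 0.0949) and was called lower when the fit held only the 4 EpCAM+ libraries (adjusted p = 0.000545) or without 1 coculture EpCAM- library (replicate 1 or 2, adjusted p = 0.0177 and 0.0178). Krt19 had -0.02 (adjusted p = 0.799), and its sign turned to 0.04 under scaling by the median of ratios. The call of Krt14 was lost with a pseudocount of 0.1 (adjusted p = 0.114).

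Other genes moved with these keratins. The epithelial markers were lower in monoculture EpCAM+ cells for 14 of 17 genes and higher for 0 of 17 (limma, adjusted p under 0.05), beside the 34.9% and 16.4% over all genes, with a median of -0.30, and Epcam had a log2 fold change of -0.62. The stromal markers summed to 38.7 to 39.0 FPKM in monoculture EpCAM+ and 228 to 231 FPKM in coculture EpCAM+ cells. They were lower for 12 of 13 tested genes and higher for 1, Postn, with Lum listed at 0 in both groups. Postn averaged 21.2 ± 0.288 FPKM in monoculture EpCAM+ and 17.4 ± 1.03 FPKM in coculture EpCAM+ cells (SD, n = 2), a large part of the monoculture sum. Col1a1 averaged 5.99 ± 0.0788 FPKM in monoculture EpCAM+ and 72.1 ± 0.468 FPKM in coculture EpCAM+ cells (SD, n = 2). The part of these markers in the keratin differences was not tested.

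**Figure D3:**
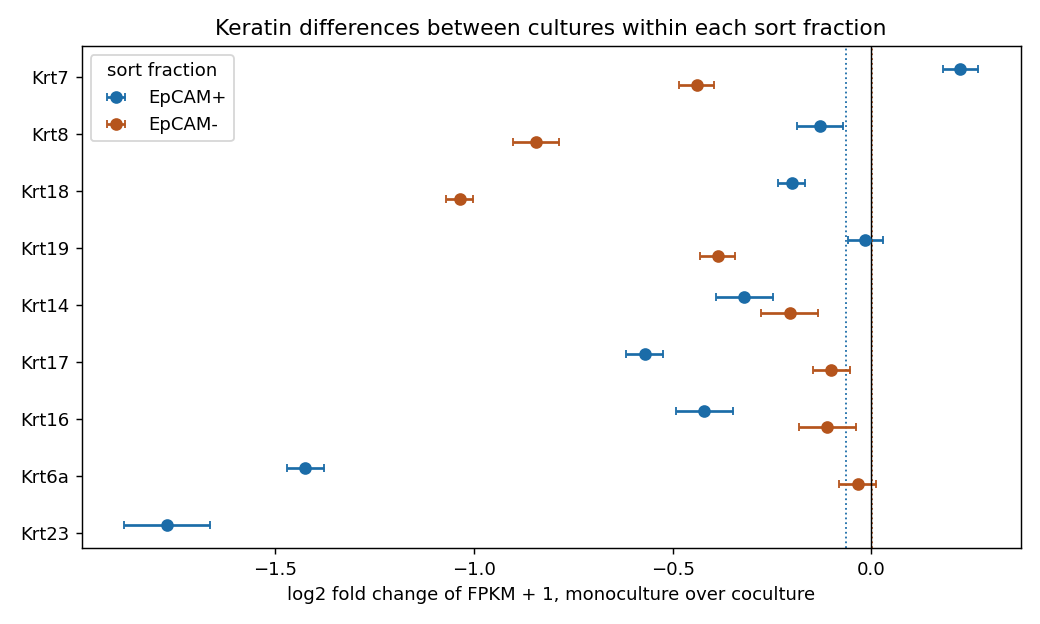
Log2 fold change of FPKM + 1, monoculture over coculture, for the 9 tested keratins in EpCAM+ cells (blue) and 8 of them in EpCAM- cells (orange; Krt23 is left out, being listed at 0 in all EpCAM- libraries), with standard errors from limma as bars and the medians of all tested genes as dotted lines. On this scale the simple keratins are displaced in EpCAM- cells, with Krt18 at -1.04, and Krt6a in EpCAM+ cells, at -1.42. The other keratins are below 1 FPKM on average in EpCAM- cells, where the scale understates a change.

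Within EpCAM- cells the pattern was another one, at far lower levels. All 4 simple keratins were lower in monoculture, and of the other 5 tested keratins Krt14 alone was called. That made 5 of 9 lower and 0 of 9 higher, beside 30.3% and 32.4% of all genes tested (adjusted p under 0.05 in limma). Krt14, Krt17, Krt6a and Krt23 reached 1 FPKM in EpCAM+ libraries only, and Krt16 in a single EpCAM- library besides. Krt23, listed at 0 in all EpCAM- libraries, could not be called. For these 5 the scale understates a change, so the count of 9 and its median are no measure of the whole set. The median over the 9 was -0.21 and over all genes tested 0.0016. Krt18 averaged 3.77 ± 0.214 FPKM in monoculture EpCAM- and 8.78 ± 0.291 FPKM in coculture EpCAM- cells (SD, n = 2), a log2 difference of -1.04 (SE 0.0339, adjusted p = 1.42e-07). It was the 1 keratin here among the 1.96% of all genes that were at least 2-fold lower.

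Krt8 averaged 4.92 ± 0.280 FPKM in monoculture EpCAM- and 9.63 ± 0.969 FPKM in coculture EpCAM- cells (SD, n = 2), a log2 difference of -0.84 (SE 0.0571, limma adjusted p = 7.61e-06). Krt7 had -0.44 (adjusted p = 6.73e-05) and Krt19 -0.39 (adjusted p = 0.00013). For each of the 4 both monoculture EpCAM- libraries lay below both coculture EpCAM- libraries. Krt14 had -0.21 (adjusted p = 0.0382), at levels under 1 FPKM, and its call was lost without a filter, without a trend in eBayes and in 6 of 8 fits that left out a library, with an adjusted p of up to 0.201. Krt16 had -0.11 (adjusted p = 0.214), Krt17 -0.10 (adjusted p = 0.0949) and Krt6a -0.03 (adjusted p = 0.547). As plain ratios of the mean FPKM, coculture over monoculture, Krt18 had 2.33, Krt8 1.96, Krt7 1.44 and Krt19 1.37. The ratios were 1.45 for Krt14, 1.32 for Krt6a, 1.28 for Krt17 and 1.20 for Krt16, at means under 1 FPKM. There the pseudocount of 1 understates a change, so the log2 values alone do not set Krt7 and Krt19 apart from these genes. Without coculture EpCAM- replicate 2, which has the lower Krt16 level of the pair, Krt16 had -0.23 (adjusted p = 0.00693), and without replicate 1 of that group 0.0060. Without monoculture EpCAM- replicate 2, Krt17 had -0.15 (adjusted p = 0.0278). The sign of Krt6a turned under quantile normalization (0.0061).

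The 17 epithelial markers summed to 3.57 to 3.98 FPKM in monoculture EpCAM- and 5.11 to 5.84 FPKM in coculture EpCAM- cells, and 6 of 17 were lower in monoculture, 0 higher and 11 not called (limma), with a median of -0.03. The share of all genes called lower was 30.3% and higher 32.4%, so the count of lower markers was near that of all genes. However, 15 of the 17 reached 1 FPKM in EpCAM+ libraries only, and below it the pseudocount of 1 understates a change. Neither the count nor the median therefore measures how far the markers moved. Prss8 was listed at 0 in both coculture EpCAM- libraries. Cldn4 had a log2 fold change of -0.47, Spint2 of -0.28 and Epcam of -0.12. Cldn4 averaged 0.511 FPKM in monoculture EpCAM- and 1.09 FPKM in coculture EpCAM- cells. In the same order, Spint2 averaged 0.713 and 1.09 FPKM and Epcam 0.243 and 0.350 FPKM. At such levels the log2 values cannot be set against those of the simple keratins, which were higher. The part of epithelial RNA in these keratin differences was not tested.

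The interaction subtracts the log2 fold change of monoculture over coculture in EpCAM- cells from that in EpCAM+ cells. All 4 simple keratins had a positive interaction and 4 others a negative one, beside 26.0% and 39.2% of all genes tested (adjusted p under 0.05 in limma). The 4 others include Krt23, which reached 1 FPKM in coculture EpCAM+ libraries only. Krt18 had 0.83 (SE 0.0479, adjusted p = 3.7e-06), Krt8 0.71 (SE 0.0808, adjusted p = 0.00014), Krt7 0.66 (SE 0.0624, adjusted p = 5.15e-05) and Krt19 0.37 (SE 0.0619, adjusted p = 0.00114). In these the gap between EpCAM+ and EpCAM- cells was wider in monoculture, and the larger part of the interaction came from the EpCAM- levels, as the paragraphs above show. Krt6a had -1.39 (SE 0.0654, adjusted p = 1.34e-06), Krt17 -0.47 (SE 0.0656, adjusted p = 0.000446), Krt16 -0.31 (SE 0.101, adjusted p = 0.0276) and Krt14 -0.11 (SE 0.102, adjusted p = 0.358). For Krt23, listed at 0 in EpCAM- cells, the interaction of -1.77 is the EpCAM+ difference itself.

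Because the basal and stress keratins were below or near 1 FPKM in EpCAM- cells, their interaction depended on the pseudocount. With 0.1 in place of 1, Krt17 had -0.29 (limma adjusted p = 0.139) and Krt16 -0.20 (adjusted p = 0.391), Krt14 turned to 0.13 (adjusted p = 0.612), and 2 keratins in place of 4 were called lower. The Krt16 call was also lost with a pseudocount of 0.5, without a filter, under scaling by the median of ratios and in 5 of 8 fits that left out a library, with adjusted p between 0.00122 and 0.0883 over those 8. Without coculture EpCAM+ replicate 1 or 2 the count was 2 as well, since Krt23 then missed the filter and Krt16 its call. The 4 simple keratins kept their sign and their call under all alternatives that were run.

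Within EpCAM+ cells the make-up of the keratin RNA shifted between the cultures. Simple keratins made up 91.0% and 90.9% of the summed FPKM of the 10 genes in monoculture EpCAM+ and 88.1% and 88.2% in coculture EpCAM+ libraries. Basal keratins had 4.23% and 4.27% in monoculture EpCAM+ and 5.24% and 5.20% in coculture EpCAM+ libraries, and stress keratins 4.75% and 4.81% in monoculture EpCAM+ and 6.63% and 6.59% in coculture EpCAM+ libraries. Each pair of libraries was closer than the cultures were to each other. The 10 genes held 2.24% and 2.27% of all FPKM in monoculture EpCAM+ and 2.43% and 2.44% in coculture EpCAM+ libraries, against 0.00470% and 0.00502% in monoculture EpCAM- and 0.00865% and 0.00832% in coculture EpCAM- libraries.

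Filaments need both types, so the sums of the types were set side by side, a choice made after the values had been seen. The type I sum was 1.00 and 0.990 times the type II sum in monoculture EpCAM+ and 1.09 times in both coculture EpCAM+ libraries, against 1.05 and 1.17 times in monoculture EpCAM- and 1.05 and 1.17 times in coculture EpCAM- libraries. Over all keratin genes of the files the type I sum was 0.985 and 0.974 times the type II sum in monoculture EpCAM+ and 1.08 times in both coculture EpCAM+ libraries, against 0.864 and 0.949 times in monoculture EpCAM- and 0.952 and 1.01 times in coculture EpCAM- libraries. Which type had the larger sum in EpCAM- libraries thus depended on the genes counted, Krt80 of type II among them. The levels of some textbook partners lay further apart: Krt14 and Krt17 stood far above Krt5 in the EpCAM+ libraries, and Krt16 was above Krt6a in every library. Krt8 and Krt18 were closer, at ratios of 1.31 to 1.37 in EpCAM+ and 0.995 to 1.30 in EpCAM- libraries.

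**Figure D4:**
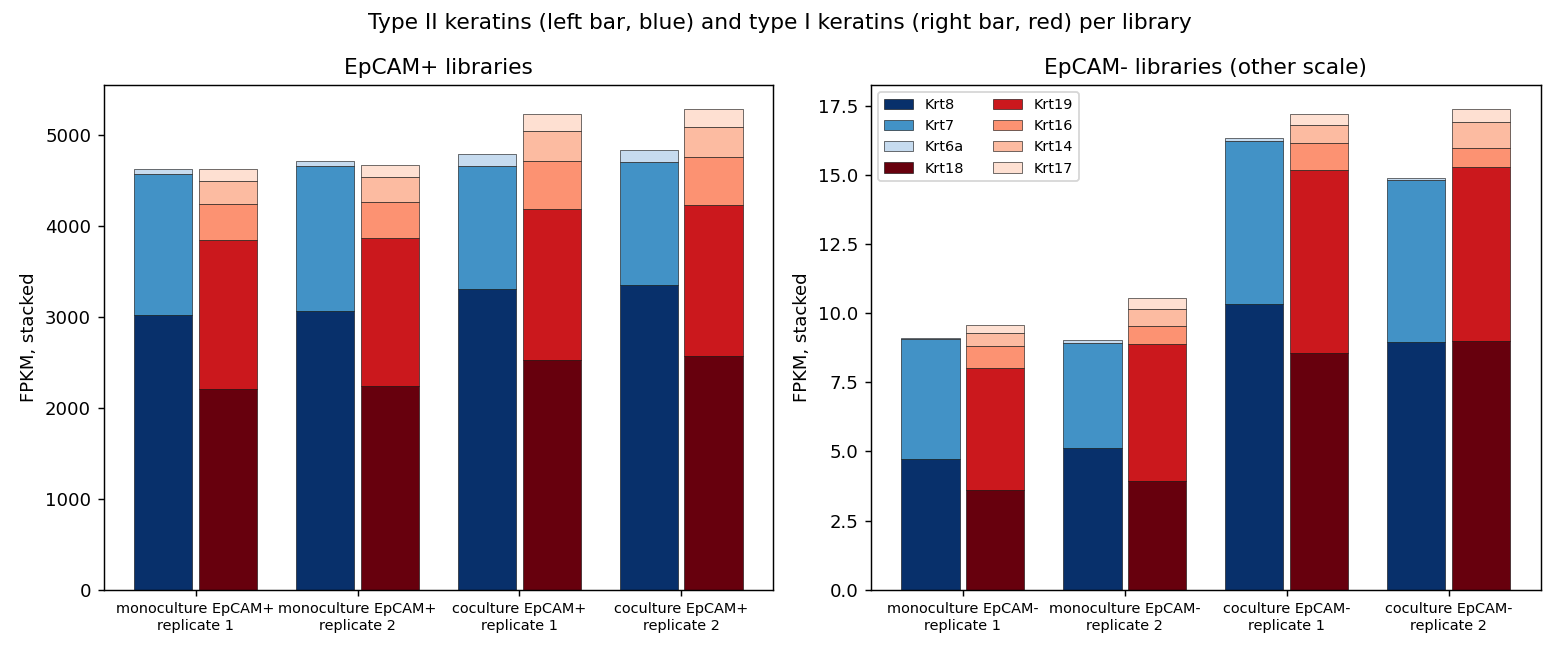
Stacked FPKM of the type II keratins (left bar of each library, blue) and the type I keratins (right bar, red) in EpCAM+ libraries (left panel) and EpCAM- libraries (right panel, on its own scale); Krt5 and Krt23 are left out as too low to be seen. The bars of a library are of like height, with Krt8 and Krt7 making up nearly all of the type II sum.

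The balance within pairs was tested between the fractions over 4 EpCAM+ and 4 EpCAM- libraries. An exact permutation test was used, two-sided, whose smallest possible p is 0.0286. It takes the libraries as independent, although each fraction pools 2 libraries from each culture. The ratio of Krt8 to Krt18 was 1.31 to 1.37 in EpCAM+ and 0.995 to 1.30 in EpCAM- libraries, a log2 difference of 0.16 (exact permutation p = 0.0286, adjusted over 3 ratios 0.0857). Within EpCAM- the monoculture libraries had 1.30 and 1.30 and the coculture libraries 1.20 and 0.995. The ratio of Krt7 to Krt19 was 0.813 to 0.978 in EpCAM+ and 0.764 to 0.985 in EpCAM- libraries, a difference of -0.0062 (exact permutation p = 0.971). The ratio of the summed simple to the summed basal keratins was 16.8 to 21.5 in EpCAM+ and 17.9 to 30.3 in EpCAM- libraries, a difference of -0.24 (exact permutation p = 0.143, adjusted 0.214). None of the 3 ratios passed the adjusted threshold, and a p that misses it does not show that the ratios were equal. With a pseudocount of 1 on both sides the simple to basal difference turned to 0.68, the basal sum in EpCAM- libraries being near 1 FPKM.

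Of 45 other keratin genes, 42 were in the files and 6 were tested. Krt80, a type II keratin, had 70.5 and 69.2 FPKM in monoculture EpCAM+ and 54.5 and 54.8 FPKM in coculture EpCAM+ libraries, against 3.58 and 3.41 FPKM in monoculture EpCAM- and 3.46 and 3.62 FPKM in coculture EpCAM- libraries. Its EpCAM- level, at 5.00% of the EpCAM+ level in monoculture and 6.48% in coculture, was above the highest share of any of the 8 keratins and 17 markers above. Krt6b, the near copy of Krt6a, had 6.09 and 6.39 FPKM in monoculture EpCAM+ and 18.9 and 18.1 FPKM in coculture EpCAM+ libraries and was listed at 0 in all EpCAM- libraries. In EpCAM+ cells its log2 fold change of -1.43 (SE 0.0478, limma adjusted p = 4.75e-07) stood beside -1.42 for Krt6a, with which it shares 18.8% of its 150-base windows. Krt42 had -0.46 (adjusted p = 0.000171) and Krt80 0.35 (adjusted p = 0.000123). Krt83 was called higher (0.50, adjusted p = 0.0442), with 2.71 and 1.36 FPKM in monoculture EpCAM+ and 1.08 and 1.09 FPKM in coculture EpCAM+ libraries. Krt85 and Krt10 were not called in that comparison, and Krt10 had a mean between 1.12 and 1.17 FPKM in all 4 groups.

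Keratin filaments end at desmosomes and hemidesmosomes. Of 14 attachment and organiser genes, 12 were higher and 2 lower in EpCAM+ cells in both cultures (limma). Over all genes tested, 55.4% were higher and 32.4% lower in monoculture, and 59.2% higher and 28.0% lower in coculture. Dsp, Pkp3, Ppl, Evpl and Eppk1 stayed below 1 FPKM in every EpCAM- library, so these 5 had to be higher and their calls are no support. Of the other 9, 7 were higher and 2 lower in both cultures. Dsp, desmoplakin, which ties keratin to the desmosome, had 69.9 and 69.9 FPKM in monoculture EpCAM+ and 92.0 and 91.2 FPKM in coculture EpCAM+ libraries, against 0.343 and 0.321 FPKM in monoculture EpCAM- and 0.603 and 0.689 FPKM in coculture EpCAM- libraries. The desmosome plaque genes Pkp1 and Pkp3 and periplakin, Ppl, had log2 fold changes of 6.34, 5.05 and 5.11 in monoculture and 6.06, 5.45 and 4.98 in coculture. The exceptions were the linkers Plec and Dst. Plec, plectin, which also binds vimentin, had 32.9 and 34.1 FPKM in monoculture EpCAM+ and 37.3 and 36.5 FPKM in coculture EpCAM+ libraries, against 55.8 and 59.0 FPKM in monoculture EpCAM- and 85.7 and 85.4 FPKM in coculture EpCAM- libraries.

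Within EpCAM+ cells, 8 of the 14 were lower and 2 higher in monoculture (limma), beside 34.9% and 16.4% of all genes tested, with a median of -0.20. Eppk1, epiplakin, which bundles keratin filaments, had -0.78 (SE 0.0515, adjusted p = 1.53e-05), Macf1 -0.61, Pkp3 -0.53 and Evpl, envoplakin, -0.50. Dsp had -0.38 (adjusted p = 0.000127). Within EpCAM- cells 6 were lower and 1 higher, beside 30.3% and 32.4% of all genes. Dsp, Pkp3, Ppl, Evpl and Eppk1 reached 1 FPKM in EpCAM+ libraries only, so their changes here are understated. Of the other 9, 5 were lower and 1 higher. Plec had -0.57, Dst -0.47, Pnn -0.39 and Dsp -0.30, the last at means of 0.332 FPKM in monoculture EpCAM- and 0.646 FPKM in coculture EpCAM- cells. In the interaction 5 were positive and 6 negative, beside 26.0% and 39.2% of all genes, so neither count of 14 was far from the share over all genes. Among the 9 that reached 1 FPKM in both fractions, 5 were positive and 3 negative.

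Of 21 transcription factors of keratin-expressing epithelia, 17 were tested, and 13 were higher and 4 lower in monoculture, 15 higher and 2 lower in coculture (EpCAM+ over EpCAM-, limma), where 55.4% and 32.4% of all genes were called in monoculture and 59.2% and 28.0% in coculture. Grhl1, Grhl2, Ovol2, Elf3, Elf5, Ehf, Tfap2a and Foxa1 were below 1 FPKM in every EpCAM- library and Gli2 in every EpCAM+ library, so these 9 calls were set by the filter. Of the other 8 factors, 5 were higher and 3 lower in monoculture and 7 higher and 1 lower in coculture. Sox9, a luminal progenitor factor, had a log2 fold change of 4.37 in monoculture and 5.51 in coculture, and Tfap2a, Gata3 and Grhl2 had 3.98, 3.64 and 3.45 in monoculture and 4.01, 3.75 and 3.90 in coculture. Klf4 was lower in EpCAM+ cells, at 5.42 and 5.42 FPKM in monoculture EpCAM+ and 12.6 and 11.4 FPKM in coculture EpCAM+ libraries, against 43.8 and 42.8 FPKM in monoculture EpCAM- and 29.3 and 28.7 FPKM in coculture EpCAM- libraries.

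Between the cultures within EpCAM+ cells, 10 of the 17 factors were lower in monoculture and 1 was higher, Klf5 (limma), beside 34.9% and 16.4% of all genes tested. Ehf and Elf5, ETS factors of secretory and glandular epithelia, had log2 fold changes of -1.86 (SE 0.0513, limma adjusted p = 1.82e-07) and -1.59 (SE 0.0526, adjusted p = 4.64e-07). Elf5 had 2.91 and 2.77 FPKM in monoculture EpCAM+ and 10.3 and 10.9 FPKM in coculture EpCAM+ libraries. Stat3, the transcription factor of interleukin-6 family signals, had 23.9 and 23.7 FPKM in monoculture EpCAM+ and 52.1 and 52.4 FPKM in coculture EpCAM+ libraries, a difference of -1.10.

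The genes with the profile nearest to each class were sought over the 8 libraries. By the root mean square difference of centred log2(FPKM + 1), the mean profile of the simple keratins was closest to Clu (0.184), Cdh1 (0.275) and Spint2 (0.332). Clu, clusterin, a secreted chaperone, averaged 1321 ± 1.72 FPKM in monoculture EpCAM+ and 1019 ± 8.05 FPKM in coculture EpCAM+ cells, against 2.16 ± 0.128 FPKM in monoculture EpCAM- and 3.09 ± 0.0244 FPKM in coculture EpCAM- cells (SD, n = 2). The tested basal keratins, Krt14 and Krt17, were closest to Cldn3 (0.112), Epcam (0.122) and Perp (0.138), and the stress keratins to Epcam (0.143), Wfdc2 (0.198) and Perp (0.218). Krt23 was closest to Enpp3 (0.125), F5 (0.143) and Mcoln3 (0.152), each lower in monoculture EpCAM+ cells and at 4.08 to 7.28 FPKM on average in coculture EpCAM+ cells. In the 3 named classes the gap between the fractions was far larger than that between the cultures. A close gene therefore need not share the culture difference. Clu was higher in monoculture EpCAM+ cells, where the median log2 fold change of the simple keratins was -0.07. The stress profile averages Krt6a and Krt16, which changed unequally.

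Both clusters hold abundant keratins and keratins near 0, with Krt8 and Krt5 on chromosome 15 and Krt19 and Krt23 on chromosome 11. All tested genes of chromosome 11 had a median log2 fold change of 0.47 in monoculture and 0.50 in coculture between the fractions (972 genes), and those of chromosome 15 of 0.11 and 0.17 (476 genes), beside 0.23 and 0.26 over all genes.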

How the data were processed

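RNA of 8 libraries, 2 in each of 4 groups named by the labels, was sequenced as read pairs of 150 bp. The authors deposited FPKM per gene. Per the submitters' processing notes, the tools were HISAT2, SAMtools and HTSeq with edgeR, after FastQC and cutadapt, on the build mm10, with no versions. How the FPKM were computed, and on which annotation, is not given in the sources used, and the depth is unknown, so no counting interval is given.

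The filter kept genes with 1 FPKM in 2 libraries. The scale was log2(FPKM + 1). The model (limma 3.58.1, R 4.3.3) had a mean for each of the 4 groups, 4 residual degrees of freedom and a trended eBayes prior. P-values are two-sided and were adjusted by Benjamini-Hochberg over the 12012 genes, with 0.05 as the threshold. The script was tested on simulated data. Ratios of keratins were compared by exact permutation of library labels. For 2 against 2 libraries the smallest exact p is 0.333. The members and gene lists were chosen with earlier results of these data known. Named were all 10 keratins, 7 genes whatever their values, the 4 called genes with the largest change per list and comparison, other keratins with a mean of at least 1 FPKM and the 3 nearest profiles; not all of these are described. Positions are from GENCODE vM21. Same-numbered libraries did not deviate together. No libraries had identical values. Alternatives were pseudocounts of 0.1 and 0.5, no filter or one of 5 FPKM, 3 scalings, eBayes without trend or robust, a replicate block, omission of each library in turn, and fits of only the 4 libraries at hand. Software was SciPy 1.17.1, NumPy 2.4.6, pandas 2.3.3 and matplotlib 3.10.9 under Python 3.11.15.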

Additional observations from a re-analysis of the deposited data

Results flagged for a closer look

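For 8 keratins the difference between the cultures was not the same in the sort fractions by the limma test of the interaction (EpCAM+ minus EpCAM-, each monoculture over coculture, adjusted p under 0.05), 4 of them positive and 4 negative, beside 26.0% and 39.2% of all genes tested. Among the simple keratins the interaction was 0.83 for Krt18, 0.71 for Krt8, 0.66 for Krt7 and 0.37 for Krt19. Among the stress and basal keratins it was -1.39 for Krt6a, -0.47 for Krt17 and -0.31 for Krt16. With a pseudocount of 0.1 the calls of Krt17 (limma adjusted p = 0.139) and Krt16 (adjusted p = 0.391) were lost. Krt23 had -1.77, was listed at 0 in all EpCAM- libraries and reached 1 FPKM in coculture EpCAM+ libraries only, so it had to differ. The epithelial markers had 1 positive and 10 negative interactions of 17, with a median of -0.20. Of these, 15 reached 1 FPKM in EpCAM+ libraries only, so their EpCAM- differences are understated. Their counts therefore cannot be set against those of the simple keratins. No group has the 4 libraries that a check for single outlying samples needs.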

How the results depend on the processing

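Over 41 keratin differences, 732 of 764 alternative values kept their sign and their side of the threshold, 19 lost the call, 7 gained it and 6 changed sign. The 41 include the large differences between the fractions, none of which changed. All changes were in the comparisons of the cultures and in the interaction, so the pooled count overstates how stable those are. Krt14 in EpCAM- cells lost its call in 8 settings and the Krt16 interaction in 9. Krt23 was counted only for the cultures in EpCAM+ cells. The changes of sign were Krt19 in EpCAM+ cells (0.0399, scaling by the median of ratios), Krt6a in EpCAM- cells (0.0061 under quantile normalization, and -0.07 to 0.0032 with a library left out), Krt16 in EpCAM- cells (-0.23 to 0.0060 with a library left out) and the Krt14 interaction (0.13, pseudocount 0.1). With a pseudocount of 0.1, genes at least 2-fold changed numbered 562 in place of 233 for monoculture over coculture in EpCAM+, 910 in place of 543 in EpCAM-, and 1613 in place of 972 for the interaction, where 2 in place of 4 keratins were lower. With a library left out, 2 to 5 keratins were lower in the interaction. The cause was not tested, beyond the smaller constant itself and the loss of Krt23 to the filter.

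Of the calls in each comparison, the share that was higher moved under scaling from 67.9% to 49.9% (median of ratios) and 50.8% (quantile) in coculture for EpCAM+ over EpCAM-, and from 63.1% to 50.3% (median of ratios) in monoculture. For monoculture over coculture in EpCAM+ it moved from 32.0% to 45.7% (median of ratios) and 54.7% (quantile), and for the interaction from 39.9% to 53.4% (quantile).

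With a pseudocount of 1 on both sides, the ratio of Krt8 to Krt18 differed by 0.21 (exact permutation, adjusted p = 0.0429) and that of simple to basal keratins by 0.68 (adjusted p = 0.0429). With a library left out, the Krt8 to Krt18 difference was 0.08 to 0.21, that of Krt7 to Krt19 -0.079 to 0.0428 and that of simple to basal keratins -0.36 to -0.10. No pairing by replicate number was seen: deviations of same-numbered libraries correlated at -0.073 to 0.041. With 2 libraries a group, this does not show that they were unpaired. With a replicate block Krt17 in EpCAM- cells was called lower (-0.10, limma adjusted p = 0.0447), no other keratin call changed, and the ratios gave exact permutation p of 0.0556 for Krt8 to Krt18 and 0.167 for simple to basal keratins. A filter of 5 FPKM left Krt23 without a test. Precision is limited by 2 libraries a group and by levels near or below 1 FPKM of the basal and stress keratins in EpCAM- cells, and the number of reads is unknown.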

Other observations

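Among other intermediate filament genes, vimentin was abundant in both fractions. Vim had 1097 and 1095 FPKM in monoculture EpCAM+ and 907 and 914 FPKM in coculture EpCAM+ libraries, against 2664 and 2591 FPKM in monoculture EpCAM- and 3264 and 3262 FPKM in coculture EpCAM- libraries. The EpCAM+ libraries thus held both Krt8 and Vim among their abundant transcripts. Nes, nestin, a filament gene of progenitor cells, had 86.2 and 84.6 FPKM in monoculture EpCAM+ and 78.8 and 79.4 FPKM in coculture EpCAM+ libraries, against 6.49 and 6.55 FPKM in monoculture EpCAM- and 19.5 and 19.1 FPKM in coculture EpCAM- libraries. Between the cultures in EpCAM- cells its log2 fold change was -1.43 (SE 0.0250, limma adjusted p = 7.32e-09).

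Of 9 tested genes reported beside stress keratins in injured epithelium, 3 were lower and 5 higher in monoculture than coculture EpCAM+ cells (limma). Over all genes tested, 34.9% were lower and 16.4% higher. The count of lower genes was thus near the share over all genes, and that of higher genes was above it. Krt6a and Krt16 were lower in this comparison. Ereg, 1 of the lower genes, averaged 0.00408 and 0.137 FPKM in these groups and reached 1 FPKM in EpCAM- libraries only. Lcn2 and Slpi, secreted defence proteins, had log2 fold changes of -2.53 (SE 0.108, adjusted p = 1.56e-06) and -2.08 (SE 0.0556, adjusted p = 1.63e-07). Ptgs2, the inducible cyclooxygenase, and the growth factor gene Hbegf had 1.60 (SE 0.0230, adjusted p = 8.76e-09) and 1.04 (SE 0.0246, adjusted p = 8.34e-08). The 6 tested genes of squamous differentiation had unlike profiles. Sprr1a, a cornified envelope precursor, had 0.0390 and 0.0849 FPKM in monoculture EpCAM+ and 0.592 and 0.595 FPKM in coculture EpCAM+ libraries, against 0.274 and 0.223 FPKM in monoculture EpCAM- and 11.3 and 11.3 FPKM in coculture EpCAM- libraries. It reached 1 FPKM in coculture EpCAM- libraries only. Sfn, stratifin, had 149 and 148 FPKM in monoculture EpCAM+ and 125 and 123 FPKM in coculture EpCAM+ libraries, against 0.343 and 0.472 FPKM in monoculture EpCAM- and 0.564 and 0.622 FPKM in coculture EpCAM- libraries.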
